A study of Arabidopsis thaliana with 24 samples.

Results

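UBC11 (AT3G08690) encodes a ubiquitin-conjugating enzyme of the subfamily that also holds UBC8 (AT5G41700), UBC9 (AT4G27960), UBC10 (AT5G53300), UBC12 (AT3G08700), UBC28 (AT1G64230), UBC29 (AT2G16740) and UBC30 (AT5G56150). These 8 genes were taken from the 28775 genes of the expression table by their locus identifiers, as 1 subfamily around UBC11, which was picked because its transcript was lower in nrt1.13 than in wild type. The genotype values of UBC11 are therefore given as a description with no test, whereas the other 7 members were not chosen on their values and were tested. The question addressed here was whether the lower level was particular to UBC11 or was accompanied by a higher level of its relatives.

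Ubiquitin is attached to proteins by a cascade in which an E1 enzyme activates ubiquitin, an E2 enzyme (the conjugating enzyme) carries it as a thioester on a cysteine of its active site, and an E3 ligase brings the loaded E2 to the substrate. The tagged protein can be sent to the proteasome or change its partners or location, depending on the type of ubiquitin chain. E2 enzymes of the UBC8 subfamily are related to yeast Ubc4 and Ubc5 and human UBE2D, work with many RING and U-box E3 ligases, and are widely used as partners of plant E3 ligases in ubiquitination assays in vitro.

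mRNA was measured in shoots of Arabidopsis thaliana grown hydroponically with 0.2 mM (low) or 2 mM (normal) KNO3 and collected after 16 or 25 d. Wild type was Col-0, and nrt1.13 was 1 T-DNA insertion line in the nitrate transporter family gene NRT1.13 (AT1G33440), so that effects of the insertion and of other differences carried by that line cannot be told apart. Both genotypes were grown at each supply to each age, which gave 8 groups of 3 libraries, each library from a single plant, and 24 libraries in all. Values are CPM as deposited, that is reads of a gene scaled by a library size factor, and were whole multiples of 1 read in every library.

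The libraries held between 23608279 and 46155689 reads each, so that a gene at 2 CPM was covered by 45.5 to 90.8 reads. NRT1.13, the targeted gene, was measured at 7.07 to 10.2 CPM in wild-type plants and 2.19 to 4.65 CPM in nrt1.13 plants, without overlap. The labelled tissue was checked with 3 leaf genes, of which RBCS1A, the small subunit of Rubisco, lay between 16535 and 23944 CPM, while the summed level of 6 root genes was at most 2.30 CPM in any plant, with root hair genes RHD6 and EXPA7 at 0 in 22 and 23 of 24 libraries. The summed root genes ranged from 0.310 to 1.70 CPM in wild type and 0.379 to 2.30 CPM in nrt1.13. In whole shoots, fewer cells of a type and less RNA per cell cannot be told apart.

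The 8 genes lie on all 5 chromosomes, and UBC11 and UBC12 are neighbours on chromosome 3. In the RefSeq annotation (TAIR10.1), both are transcribed from the + strand, with UBC12 starting 224 bases after the end of UBC11 and 0 genes between them. Their coding sequences, of 447 and 450 bases, were 84.9% identical, the highest identity of UBC11 with any member. The other pairs with UBC11 were 81.4% identical for UBC28, 80.1% for UBC8, 79.6% for UBC9, 79.2% for UBC10, 77.2% for UBC30 and 72.5% for UBC29. The most alike pair of the subfamily was UBC9 and UBC10, at 91.1%.

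The sequence around the active-site cysteine is shown because it is the stretch that carries the enzyme's function and because it shows how far reads of the members can be told apart. Each run gives 75 coding bases from RefSeq (TAIR10.1), 5′ to 3′. In the run of UBC11 the capitals mark the cysteine codon (codon 85 of UBC11 and of the other members shown except UBC12, where it is codon 86), and in the other runs they mark bases that differ from UBC11.
UBC11: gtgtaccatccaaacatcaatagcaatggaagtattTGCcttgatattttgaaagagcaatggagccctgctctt
UBC12: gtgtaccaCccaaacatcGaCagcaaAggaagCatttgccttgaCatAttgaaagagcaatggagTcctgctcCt
UBC8: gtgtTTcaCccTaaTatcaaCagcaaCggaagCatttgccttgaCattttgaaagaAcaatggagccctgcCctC
UBC10: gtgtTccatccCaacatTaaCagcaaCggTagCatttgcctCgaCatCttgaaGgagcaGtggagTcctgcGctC
UBC28: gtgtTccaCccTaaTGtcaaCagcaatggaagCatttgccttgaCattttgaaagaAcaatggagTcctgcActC
UBC29: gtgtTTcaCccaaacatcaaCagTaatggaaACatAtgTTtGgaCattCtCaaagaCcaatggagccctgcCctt
UBC30: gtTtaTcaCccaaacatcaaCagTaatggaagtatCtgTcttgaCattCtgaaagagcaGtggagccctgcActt
In this window UBC12 differed from UBC11 at 9 bases, the fewest of the members shown, and UBC29 at 16, the most. Over the whole transcripts, none of the 75-base windows of any member occurred anywhere else in the genome. The reads had been mapped uniquely with up to 2 mismatches, so windows within 2 mismatches of another member were counted as well. UBC11 and UBC12 had 0 such windows, and their closest windows differed at 5 bases, so a read of this length from 1 of these neighbours could not be placed in the other under that limit. UBC9 and UBC10 shared 6 windows within 2 mismatches, under 0.5% of the windows of each. No other annotated gene overlapped any member on either strand.

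UBC11 was lower in nrt1.13 in all 4 conditions, by close to 1 log2 unit. At 0.2 mM and 16 d, the wild-type plants had 20.8, 18.3 and 21.8 CPM and the nrt1.13 plants 8.73, 11.2 and 10.9 CPM. At 2 mM and 16 d, the values were 17.2, 17.9 and 17.3 CPM in wild type and 10.3, 9.06 and 9.998 CPM in nrt1.13. The lowest wild-type plant lay above the highest nrt1.13 plant at both supplies. At 25 d, the wild-type plants had 14.8, 15.9 and 15.6 CPM at 0.2 mM and 18.1, 17.5 and 19.7 CPM at 2 mM. The nrt1.13 plants of that age had 8.31, 7.65 and 8.27 CPM at 0.2 mM and 10.6, 11.2 and 9.00 CPM at 2 mM. Again no plant of either genotype fell in the range of the other, and over all conditions the 12 wild-type plants (lowest 14.8 CPM) stayed above the 12 nrt1.13 plants (highest 11.2 CPM).

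On the scale of log2(CPM + 0.1), the difference for UBC11, nrt1.13 minus wild type, was -0.98 at 0.2 mM and 16 d, -0.83 at 2 mM and 16 d, -0.93 at 0.2 mM and 25 d, and -0.84 at 2 mM and 25 d. The corresponding fold decreases were 1.98, 1.78, 1.90 and 1.79, which lie on either side of a fold-change limit of 1.8. Averaged over the conditions, the difference was -0.90 (SE 0.05), a 1.86-fold decrease. The genotype difference at 0.2 mM minus that at 2 mM was -0.12 (SE 0.10), and the difference at 25 d minus that at 16 d was 0.02 (SE 0.10). UBC11 was picked on its difference at 0.2 mM. These values are therefore a description, and whether the drop depended on condition was not tested. Of all 15108 tested genes, 0.0596% were lower in nrt1.13 without overlap in all 4 conditions, a share in which UBC11 is included by its choice. The residual level in nrt1.13 rested on at least 174 reads per library, so that the transcript was reduced and not lost.

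UBC12, the tandem neighbour, showed the reverse. In wild type it was close to undetected, with 0.0515, 0.2496 and 0.0852 CPM at 0.2 mM and 16 d, and 0.0441, 0 and 0.0863 CPM at 2 mM and 16 d. The wild-type values at 25 d were 0, 0.124 and 0.0787 CPM at 0.2 mM and 0.0284, 0.167 and 0 CPM at 2 mM. These values stood for 0 to 8 reads per library, with 3 of 12 libraries at 0 and 9 at 3 reads or fewer. In nrt1.13, every plant had 30 to 88 reads of UBC12. The nrt1.13 plants had 2.51, 2.12 and 1.75 CPM at 0.2 mM and 16 d, and 1.87, 1.35 and 1.57 CPM at 2 mM and 16 d. At 25 d they had 1.11, 1.45 and 1.49 CPM at 0.2 mM and 0.875, 1.134 and 0.968 CPM at 2 mM. The lowest nrt1.13 plant (0.875 CPM) was above the highest wild-type plant (0.2496 CPM). Of the 25547 genes with a read in any library, 0.121% were higher in nrt1.13 without overlap in each of the 4 conditions.

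**Figure D1:**
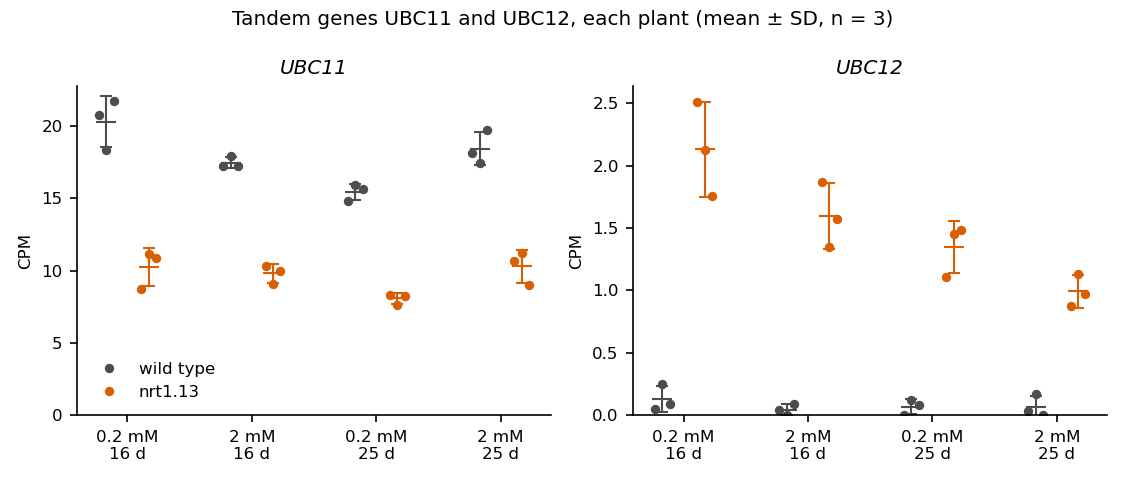
CPM of UBC11 (left) and UBC12 (right) in each plant against nitrate supply and age, for wild type (grey) and nrt1.13 (orange), with the mean and SD of 3 plants. UBC11 lies between 14.8 and 21.8 CPM in wild type and 7.65 and 11.2 CPM in nrt1.13, and UBC12 between 0 and 0.2496 CPM in wild type and 0.875 and 2.51 CPM in nrt1.13, with separate vertical scales.

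UBC12 did not reach 2 CPM in all libraries, the filter for the fit across genes, and only 2 of 12 nrt1.13 libraries reached it. It was therefore tested alone, by a two-sided exact permutation test of genotype within the 4 conditions. The mean of log2(CPM + 0.1) was 3.25 higher in nrt1.13 (exact permutation P = 1.25e-05, the smallest that 160000 arrangements can give, and 3.75e-05 after Benjamini-Hochberg adjustment over the 3 factors tested for this gene). Because a pseudocount compresses such low values, the ratio was also taken from summed reads, 614 in nrt1.13 against 32 in wild type. Scaled by the library size factors of the deposited values, UBC12 was 20.2-fold higher in nrt1.13, with a 95% exact counting interval of 14.1 to 29.7. By condition, the ratio was 17.3 (9.93 to 33.1) at 0.2 mM and 16 d, 36.4 (15.3 to 114) at 2 mM and 16 d, 19.7 (9.29 to 49.9) at 0.2 mM and 25 d, and 14.7 (6.87 to 37.4) at 2 mM and 25 d, so the intervals of the 4 conditions overlap. These intervals cover counting error only.

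Without a filter on low values, UBC12 was also called by limma across 25547 genes (log2 difference 3.25, adjusted P = 1.00e-09) and by edgeR on the reads (log2 difference 4.30, adjusted P = 1.46e-18). The log2 difference of this low gene depended on the pseudocount, and was 1.20 with a pseudocount of 1 in place of 0.1. Although higher, UBC12 remained the least abundant member in both genotypes. Its gain over wild type was 16.3% to 28.9% of the drop of UBC11, when both were expressed as CPM per kb of exons. The gain of UBC12 was 2.29, 1.78, 1.47 and 1.06 CPM per kb at 0.2 mM and 16 d, 2 mM and 16 d, 0.2 mM and 25 d, and 2 mM and 25 d. The loss of UBC11 was 8.04, 6.14, 5.90 and 6.52 CPM per kb in the same order. The sum of the tandem pair was 14.4 ± 1.64 CPM per kb (SD, n = 12) in wild type and 9.42 ± 1.18 CPM per kb (SD, n = 12) in nrt1.13. It ranged from 11.9 to 17.5 and from 7.78 to 11.4, without overlap. UBC11 made up most of this sum in both genotypes. Since UBC11 was picked for its lower level, the separation was largely set by that choice and was not tested.

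None of the tested genes around the pair was called between genotypes. Of the 20 deposited genes next to UBC11, 10 on each side and with UBC12 among them, 15 passed the filter and 0 were called by limma in the genotype average or in any single condition. The background of calls in the average was 1.7% of all tested genes, and 3 of the 15 had an unadjusted P under 0.05, beside 14.4% of all tested genes. The smallest adjusted P in the average was 0.154, for LTP6. Their average log2 differences ran from -0.20 for S6K2 to 0.08 for TH9, the thioredoxin gene directly after UBC12. AT3G08680, the gene on the other side of UBC11, differed by 0.01. UBC11, at -0.90, lay outside this range, which follows from its choice. UBC12 did not pass the filter that these 15 genes passed. It was at 3.25 with a pseudocount of 0.1 and at 1.20 with a pseudocount of 1.

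**Figure D2:**
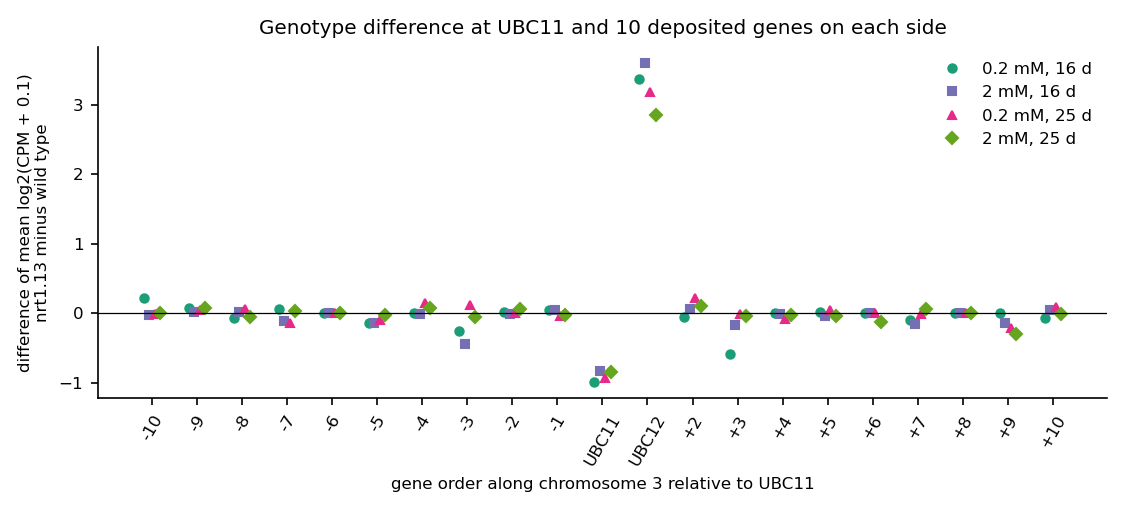
Difference in mean log2(CPM + 0.1), nrt1.13 minus wild type, for UBC11 and the 10 deposited genes on each side in locus order, 1 symbol for each of the 4 conditions. UBC11 lies between -0.98 and -0.83 and UBC12 between 2.85 and 3.60, and the other genes between -0.58 and 0.22; the genes plotted at or near 0 in every condition include some without reads.

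The 6 other relatives were far more abundant than the pair or close to UBC11, and none was called between genotypes. UBC10 and UBC8 made up most of the subfamily's transcript. UBC10 had 372, 400 and 398 CPM in wild type and 394, 382 and 431 CPM in nrt1.13 at 0.2 mM and 16 d, and 353, 351 and 369 against 376, 366 and 385 CPM at 2 mM. At 25 d, the UBC10 values were 270, 278 and 289 in wild type against 251, 282 and 345 CPM in nrt1.13 at 0.2 mM, and 351, 332 and 339 against 369, 356 and 383 CPM at 2 mM. At 2 mM and 25 d the nrt1.13 plants lay above all wild-type plants, as did 8.66% of all tested genes, whereas the ranges overlapped in the other 3 conditions. The average log2 difference of UBC10 was 0.07 (95% interval from just below 0 to 0.15, adjusted P = 0.381 in limma).

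UBC8 came closest to a higher level in nrt1.13. At 2 mM, its values were 246, 216 and 233 CPM in wild type and 260, 251 and 278 CPM in nrt1.13 at 16 d, and 218, 231 and 220 against 259, 243 and 267 CPM at 25 d. The nrt1.13 plants were above all wild-type plants on both days at this supply, as were 1.36% of all tested genes (7.82% at 16 d alone). At 0.2 mM the ranges overlapped, with 245, 307 and 298 CPM in wild type and 274, 275 and 304 CPM in nrt1.13 at 16 d, and 130, 158 and 140 against 124, 153 and 170 CPM at 25 d. The average log2 difference of UBC8 was 0.11 (95% interval 0.02 to 0.21), with an unadjusted P of 0.0216 and an adjusted P of 0.247 in limma. Leaving out nrt1.13 replicate 1 at 0.2 mM and 25 d, the plant with the lowest UBC8 value of all, brought it past the threshold (log2 difference 0.15, adjusted P = 0.0396), and no other alternative did.

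The remaining 4 relatives moved less. UBC9 averaged 0.07 higher (95% interval 0.00 to 0.13, unadjusted P = 0.0393, adjusted P = 0.315), UBC29 0.05 higher (-0.05 to 0.16, adjusted P = 0.674) and UBC30 0.03 higher (-0.03 to 0.10, adjusted P = 0.685) in nrt1.13, whereas UBC28 averaged 0.06 lower (log2 difference -0.06, interval -0.14 to 0.02, adjusted P = 0.475 in limma). At 0.2 mM and 16 d, UBC9 had 92.0, 87.9 and 97.9 CPM in wild type and 108, 103 and 104 CPM in nrt1.13, a difference of 0.18 (adjusted P = 0.328) beside 0.03 at 0.2 mM and -0.02 at 2 mM on day 25. The UBC9 ranges did not overlap at 0.2 mM and 16 d, and 6.33% of all tested genes were higher in nrt1.13 without overlap there. UBC28 was separate in the other direction at 0.2 mM and 25 d, with 109, 117 and 106 CPM in wild type and 104, 97.2 and 104 CPM in nrt1.13, as were 3.8% of all tested genes. For UBC29 and UBC30 the genotypes overlapped in every condition. Taking the upper ends of the intervals, an average increase above 0.21 on the log2 scale, that is in UBC8, lay outside the 95% intervals of all 6 genes.

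For these 6 genes, 0 were called by limma in the average of the conditions, against 1.7% of all tested genes, and 2 had an unadjusted P under 0.05, as did 14.4% of all tested genes. In the single conditions the count was also 0 of 6, against a background of 0.132% at 0.2 mM and 16 d, 0.0728% at 2 mM and 16 d, 0.258% at 0.2 mM and 25 d, and 0.086% at 2 mM and 25 d. The counts with an unadjusted P under 0.05 were 2, 0, 0 and 1 in that order, beside 9.73%, 6.96%, 6.1% and 5.47% of all tested genes, and edgeR on the recovered reads also called 0. With backgrounds this low, 0 of 6 does not set these genes apart from the rest of the transcriptome. For the genotype-by-nitrate interaction, limma called 0 of 6 (background 0.0%) and 1 of 6 had an unadjusted P under 0.05, as did 3.36% of all tested genes. That gene was UBC28, with an interaction of -0.16 (95% interval -0.31 to -0.01, unadjusted P = 0.0408). For the genotype-by-age interaction, 0 of 6 were called (background 0.0794%) and 0 of 6 had an unadjusted P under 0.05, and edgeR called 0 for both interactions.

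**Figure D3:**
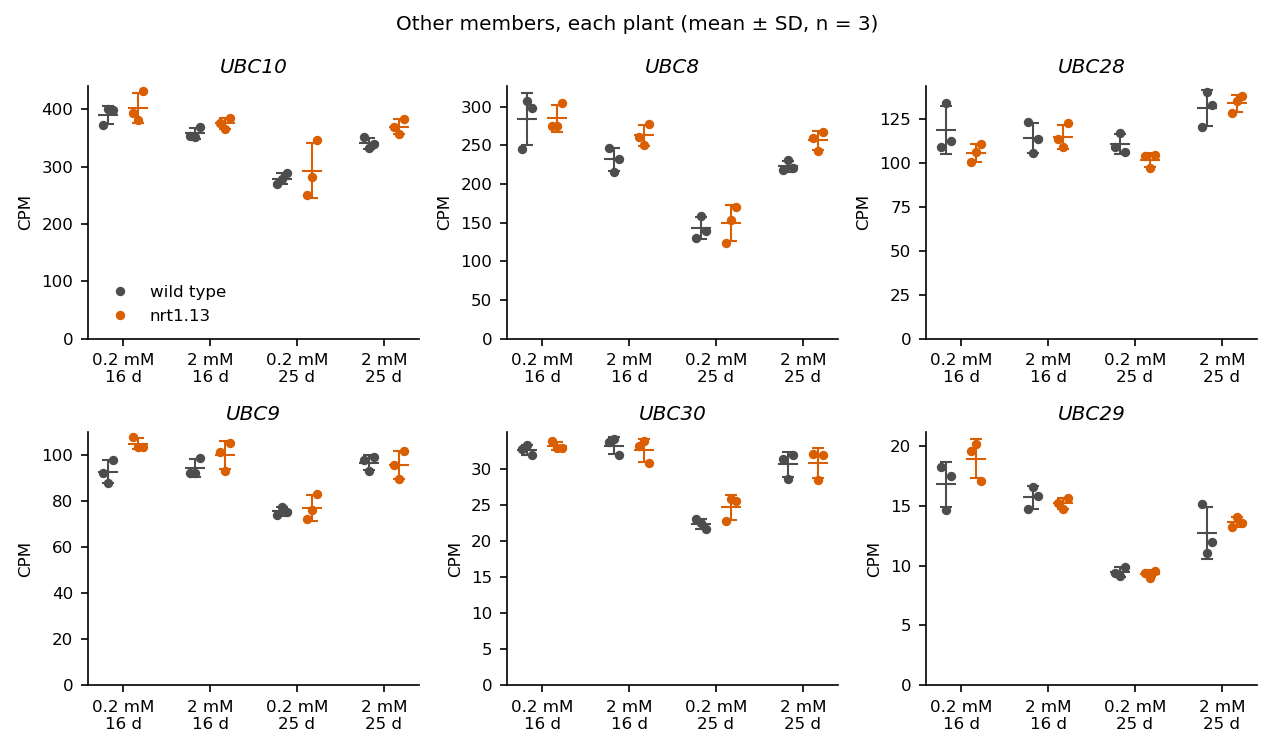
CPM of the other 6 members in each plant against nitrate supply and age, for wild type (grey) and nrt1.13 (orange), with the mean and SD of 3 plants and a separate vertical scale from 0 in each panel. The genotypes lie close together in every panel, and all 6 members have their lowest means at 0.2 mM and 25 d in both genotypes.

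To compare the members with one another, CPM was divided by the length of the exons, since a longer transcript yields more reads. In wild type the order was UBC10 (254 ± 32.1 CPM per kb, SD, n = 12), UBC8 (153 ± 38.4), UBC28 (106 ± 10.5), UBC9 (70.2 ± 7.26), UBC30 (22.6 ± 3.52), UBC29 (14.8 ± 3.51), UBC11 (14.3 ± 1.64) and UBC12 (0.0872 ± 0.0860). The same order held in nrt1.13, with UBC10 at 267 ± 36.3 CPM per kb, UBC8 at 165 ± 39.3, UBC28 at 102 ± 12.2, UBC9 at 73.8 ± 9.33, UBC30 at 23.0 ± 2.87, UBC29 at 15.5 ± 3.99, UBC11 at 7.68 ± 0.998 and UBC12 at 1.74 ± 0.556. Within single plants, UBC8 was above UBC28 in 11 of 12 wild-type and 11 of 12 nrt1.13 libraries. UBC29 and UBC11 were not separable in wild type, where UBC29 was the higher in 7 of 12 plants, but UBC29 was the higher in 12 of 12 nrt1.13 plants. All other neighbours in the order kept it in every plant.

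UBC11 thus contributed little to the summed transcript of the subfamily. It made up 2.28% ± 0.18 (SD, n = 12) of the 8-member sum per kb in wild type and 1.18% ± 0.14 (SD, n = 12) in nrt1.13, and UBC12 made up 0.0135% ± 0.0125 and 0.267% ± 0.0775. The sum itself was 634 ± 86.8 CPM per kb in wild type and 656 ± 95.5 CPM per kb in nrt1.13. The group means ran from 503 (wild type, 0.2 mM and 25 d) to 729 (nrt1.13, 0.2 mM and 16 d). Within conditions, the sums of the genotypes overlapped at 0.2 mM on both days and at 2 mM and 16 d (635 to 670 in wild type and 666 to 719.6 in nrt1.13). At 2 mM and 25 d they did not overlap, with 650 to 653 CPM per kb in wild type and 670 to 719 in nrt1.13. In that condition 8.66% of all tested genes, UBC8 and UBC10 among them, were higher in nrt1.13 without overlap. At 0.2 mM the 6 other relatives together were 10.9 CPM per kb higher in nrt1.13 at 16 d and 9.73 higher at 25 d, and at 2 mM they were 38.8 and 47.1 CPM per kb higher. In each condition the difference of these 6 genes was larger than the loss of UBC11, although none of them passed the test alone. The SD of the 8-member sum within groups (n = 3) was 41.4 CPM per kb in wild type and 31.4 in nrt1.13 at 0.2 mM and 16 d, 17.6 and 57.3 at 0.2 mM and 25 d, 20.0 and 26.9 at 2 mM and 16 d, and 1.76 and 24.5 at 2 mM and 25 d. A sum over chosen members was not tested.

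**Figure D4:**
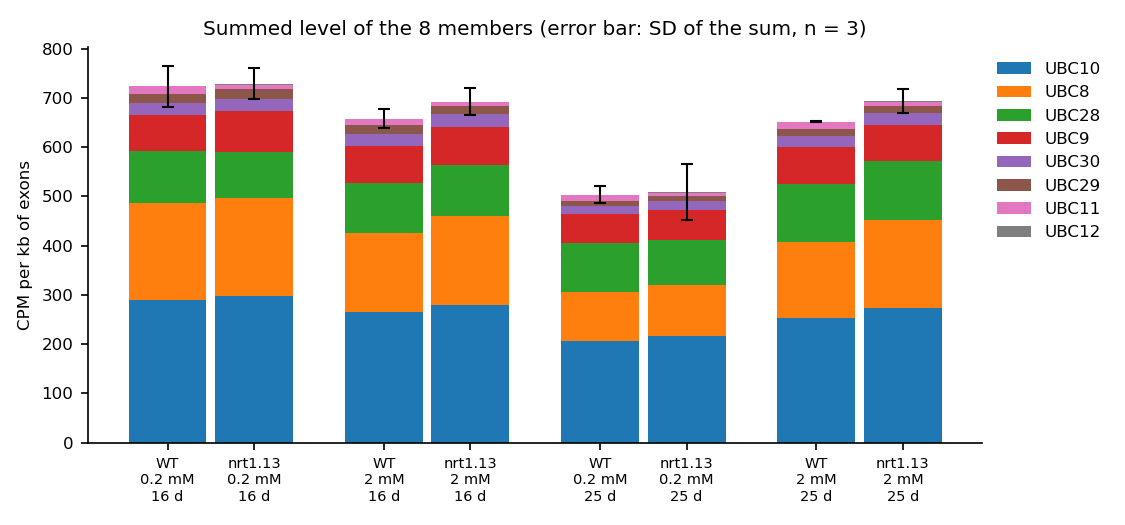
Stacked mean CPM per kb of exons of the 8 members in each of the 8 groups, with the SD of the sum over 3 plants. The column height is set by UBC10, UBC8, UBC28 and UBC9, is lowest at 0.2 mM and 25 d in both genotypes (503 in wild type and 509 in nrt1.13), and UBC11 and UBC12 form the thin top layers.

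Nitrate supply and age moved most of the members. The differences for supply and age given from here on are averages of the 2 genotypes unless a genotype is named. At 25 d, all 7 tested members were lower at 0.2 mM than at 2 mM (7 of 7 called by limma, against 27.7% of all tested genes called lower and 54.4% called in either direction). UBC8 fell most, by 0.72 on the log2 scale (95% interval -0.85 to -0.58, adjusted P = 7.98e-10), a 1.65-fold decrease. UBC29 fell by 0.48 (adjusted P = 2.79e-06), UBC30 by 0.38 (adjusted P = 1.54e-07), UBC9 by 0.33 (adjusted P = 4.57e-07), UBC28 and UBC10 each by 0.32 (adjusted P = 1.14e-05 and 1.50e-05), and UBC11 by 0.30 (adjusted P = 0.000762). The 0.2 mM and 2 mM plants did not overlap for any of the 7 members in either genotype at this age, which held for 18.8% of all tested genes.

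UBC11 was lower at 0.2 mM and 25 d within each genotype. The log2 difference, 0.2 mM minus 2 mM, was -0.25 in wild type (limma adjusted P = 0.043, with 39.0% of all tested genes called) and -0.34 in nrt1.13 (adjusted P = 0.00704, with 40.0% called). At 16 d the pattern was different. In the average of the genotypes, UBC8 and UBC29 were each higher by 0.20 at 0.2 mM (limma adjusted P = 0.0353 and 0.049). This made 2 of 7 members called, against 9.66% of all tested genes called higher and 18.3% in either direction. Within wild type the difference was 0.29 for UBC8 and 0.09 for UBC29 (limma adjusted P = 0.0632 and 0.627). Within nrt1.13 it was 0.12 and 0.31 (limma adjusted P = 0.494 and 0.0799). UBC10 differed by 0.11 (adjusted P = 0.145), UBC11 by 0.13 (adjusted P = 0.177), and UBC9, UBC28 and UBC30 by 0.02, -0.03 and 0.00. Neither call at 16 d was stable. The count was 0 without a filter on low values, and leaving out single libraries gave between 0 and 3.

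The nitrate effect therefore differed between the ages. The difference at 25 d minus that at 16 d was negative in all 7 tested members and was called by limma in 7 of 7, against 25.4% of all tested genes called negative and 47.1% in either direction. It was -0.92 for UBC8 (adjusted P = 1.23e-08) and -0.68 for UBC29 (adjusted P = 4.30e-06). UBC11 and UBC10 had -0.43 each (adjusted P = 0.000775 and 4.29e-05), UBC30 had -0.39, UBC9 -0.36 and UBC28 -0.29 (adjusted P = 3.80e-05, 3.94e-05 and 0.00255).

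Age gave the same picture from the other side. At 0.2 mM, 6 of 7 members were lower at 25 d than at 16 d, against 37.9% of all tested genes called lower by limma and 65.3% in either direction. UBC8 fell by 0.96 on the log2 scale (adjusted P = 1.72e-12) and UBC29 by 0.91 (adjusted P = 2.20e-11), close to a 2-fold decrease. The other 4 that fell were UBC30 (by 0.49), UBC10 (by 0.48), UBC9 (by 0.37) and UBC11 (by 0.36), with adjusted P-values from 1.41e-09 to 6.15e-05. UBC28 alone was not called, with a difference of -0.07 (95% interval -0.18 to 0.03). For UBC11 the fall was 0.39 in wild type and 0.33 in nrt1.13 (log2 differences -0.39 and -0.33, limma adjusted P = 0.00161 and 0.00634), where 54.3% and 50.7% of all tested genes were called.

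At 2 mM, age had little effect on the subfamily. UBC28 rose by 0.21 (adjusted P = 0.00515) and UBC29 fell by 0.23 (adjusted P = 0.0198), so 1 of 7 was called higher and 1 of 7 lower, against 8.21% and 12.6% of all tested genes and 20.8% in either direction. UBC11 differed by 0.07 (95% interval -0.07 to 0.21). The call of UBC29 was lost without wild-type replicate 2 at 16 d, or without wild-type replicate 2 or 3 at 25 d (2 mM in each case), where the log2 difference was between -0.21 and -0.19.

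For UBC12, the tests of supply and age depended on the settings. Over both genotypes it was 0.37 higher at 0.2 mM (exact permutation P = 0.0492, adjusted P = 0.0498) and 0.39 lower at 25 d (log2 difference -0.39, exact permutation P = 0.0498, adjusted P = 0.0498), and most leave-one-out fits lost these calls. With a pseudocount of 1 the differences were 0.15 and -0.21, with lower P-values (exact permutation, adjusted P = 0.00807 and 0.00523). In the nrt1.13 plants alone, where the gene could be measured, it was 0.40 higher at 0.2 mM (exact permutation P = 0.02) and 0.62 lower at 25 d (log2 difference -0.62, exact permutation P = 0.005, adjusted P = 0.01). That restriction was chosen after seeing the data.

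**Figure D5:**
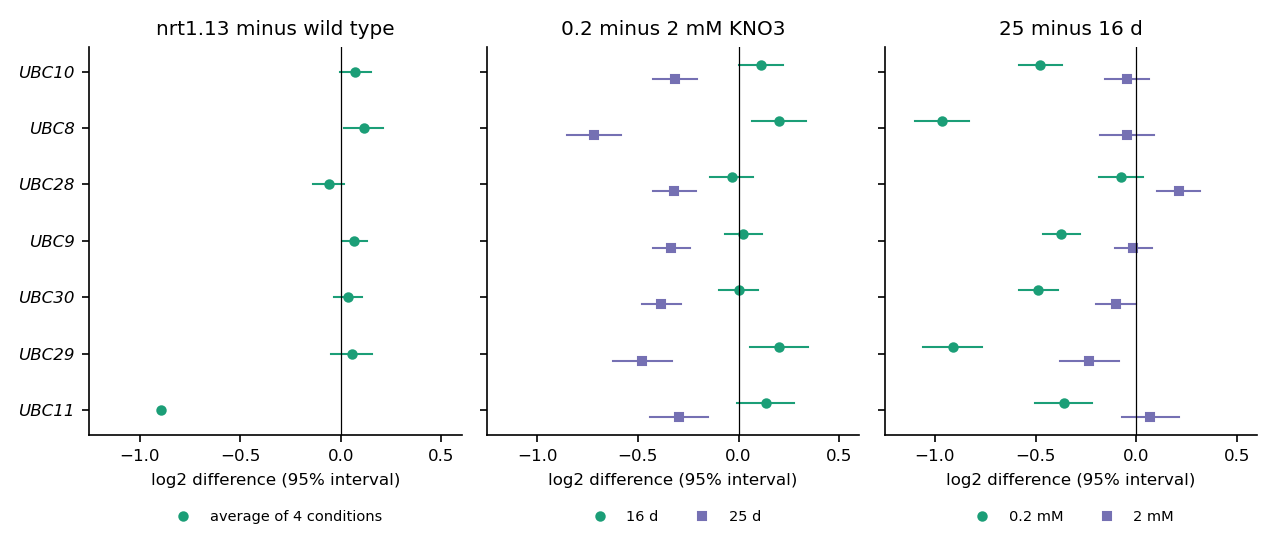
Log2 differences of 7 tested members for genotype (left), nitrate supply (middle, at 16 and 25 d) and age (right, at 0.2 and 2 mM). Genotype values are averages of 4 conditions, and supply and age values are averages of the 2 genotypes. Intervals are 95%, with none for the genotype value of UBC11. The genotype differences of the 6 relatives lie between -0.06 and 0.11 while UBC11 is at -0.90, and all 7 members are below 0 for nitrate at 25 d.

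Other genes of the ubiquitin pathway were examined from chosen lists. These held other E2 enzymes and E2-like proteins, E1 and ubiquitin genes, and RING and U-box E3 ligases that include known nitrate- or stress-related ligases. The E3 list does not cover all RING and U-box genes. In the genotype average, limma and edgeR called 0 of 35 tested other E2 genes (37 in the list), 0 of 6 E1 and ubiquitin genes and 0 of 12 tested E3 genes (15 in the list). In limma, 2, 1 and 0 of them had an unadjusted P under 0.05. Of all tested genes, limma called 1.7%, and 14.4% had an unadjusted P under 0.05. With this background, the counts of 0 do not set these lists apart from the rest of the transcriptome. The log2 differences ran from -0.17 to 0.11 for the other E2 genes, with a median of -0.01, against a median of 0.00 over all tested genes.

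At 25 d, the other E2 genes also tended to be lower at 0.2 mM than at 2 mM, with 19 of 35 lower and 2 higher in limma, where 27.7% of all tested genes were called lower and 54.4% in either direction. Their median was -0.14, against 0.00 over all tested genes. UBC33 fell by 0.55 (log2, adjusted P = 4.90e-07) and UBC2, which acts with E3 ligases that ubiquitinate histone H2B, by 0.37 (adjusted P = 5.61e-07), while UBC14 rose by 0.38 (adjusted P = 2.08e-06). Of the 6 E1 and ubiquitin genes, 4 were lower, beside 27.7% of all tested genes, among them the polyubiquitin genes UBQ3 (by 0.43) and UBQ10 (by 0.26), whereas UBA2, an E1 gene, was 0.31 higher. Of the 12 E3 genes, 4 were lower and 1 was higher, again beside 27.7% of all tested genes called lower. SINAT5, a RING ligase of auxin signalling, fell by 0.64 (adjusted P = 5.65e-05). Its fall was called within nrt1.13 (log2 difference -0.86, limma adjusted P = 0.00018) but not within wild type. HOS1, a RING protein of cold responses, rose by 0.18 (adjusted P = 0.0103), and was not called within either genotype.

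The genes whose levels ran most closely with UBC11 over the 24 libraries were ranked by Pearson's r of log2(CPM + 0.1), which was 0.94 for SHL1, 0.90 for TLP2, 0.88 for NRT1.13, 0.77 for ABCG22 and 0.74 for AT4G36010. The libraries share the genotype contrast, and the values of r are given as a description. After subtraction of the 8 group means, so that only differences among plants of a group remained, the 5 closest were TINY2 (0.85), AT1G14130 (0.76), AT1G74240 (0.75), BCCP2 (0.75) and APL4 (0.74). None of the first 5 was among the second. For the relatives that passed the filter, r with UBC11 was between 0.05 for UBC9 and 0.32 for UBC28 over the 24 libraries. After subtraction of the group means, it was between -0.32 for UBC30 and 0.21 for UBC29. UBC11 was picked for its genotype difference, which these relatives did not share in size and which enters r over the 24 libraries. Those values therefore cannot decide how closely the relatives followed UBC11 across supply and age. Among the relatives themselves, r over the 24 libraries ranged from 0.03 for UBC28 with UBC29 to 0.96 for UBC8 with UBC10. After subtraction of the group means, UBC8 and UBC10 had 0.75.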

How the data were processed

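mRNA was sequenced from 24 Arabidopsis shoots (TruSeq Stranded mRNA libraries, 3 single plants per group). The authors trimmed the reads, mapped them uniquely to TAIR10 with at most 2 mismatches in CLC Genomics Workbench 10, and deposited the expression signal per gene as CPM; the strand setting of counting is not given in the sources used here. The submitters' processing notes name bcl2fastq 2.17.1.14. The deposited columns summed to between 968394 and 1038371 per library, and 100% of values were whole multiples of 1 read (within 0.01 reads), so read counts were recovered from them.

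Genes with at least 2 CPM in all 24 libraries (15108 of 28775) were fitted with limma 3.58.1 (R 4.3.3, trend) on log2(CPM + 0.1), with 8 group means, and P-values were Benjamini-Hochberg adjusted over all tested genes, with a threshold of 0.05. UBC12, below the filter, was tested by exact permutation within strata. edgeR 4.0.16 (quasi-likelihood, TMM) on the recovered reads, a pseudocount of 1, other filters, median-ratio scaling, limma without trend, fits of only the libraries compared, a replicate block and leaving out each library were alternatives. Exon lengths, sequences and read-length windows of 75 bases came from RefSeq TAIR10.1, whose build label differs from that of the files, so no coordinates are given. For genes with several coding variants, that nearest in length to UBC11 was used. The limma fit was also tested on simulated data.

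The members and lists were chosen with earlier results of these data known. Named were the members, list genes past the threshold (up to 5 by size per list and comparison were eligible), the 20 neighbours of UBC11 and the 5 genes closest to it in level; LTP6, S6K2 and TH9 were named as the ends of ranges.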

Additional observations from a re-analysis of the deposited data

Results flagged for a closer look

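In all 7 members that passed the filter, the nitrate effect (0.2 mM minus 2 mM) differed between 25 d and 16 d by a test of the difference itself (limma, adjusted over all genes). The change of the effect on the log2 scale was -0.92 for UBC8, -0.68 for UBC29, -0.43 for UBC11, -0.43 for UBC10, -0.39 for UBC30, -0.36 for UBC9 and -0.29 for UBC28. Of all tested genes, 47.1% also passed this test and 25.4% passed it with a negative value.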

How the results depend on the processing

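The differences of UBC11 between genotypes kept their direction and size in every alternative run, with the average between -0.91 and -0.87 when single libraries were left out, and UBC12 stayed called between genotypes in each (3.17 to 3.35 when leaving out 1 library). The count of called relatives of UBC11, 0 in each of the 4 conditions and in their average, became 1 without a filter on low values, in limma and in edgeR (the latter added after seeing the data), because UBC12 then entered the fit. It was 0 to 1 in the average over the fits that left out 1 library, the 1 being UBC8.

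The 2 members called for nitrate at 16 d became 1 with a filter on mean CPM, 0 without a filter, 1 with median-ratio scaling, 0 in limma without trend, 1 in edgeR without a filter, and 0 to 3 when libraries were left out. The 2 members called for age at 2 mM were 1 to 2. The nitrate and age values of UBC12 lost their calls with median-ratio scaling (0.37 and -0.37, adjusted P = 0.0617 for both), kept them with a pseudocount of 1 (0.15 and -0.21, exact permutation, adjusted P = 0.00807 and 0.00523), and ranged from 0.29 to 0.48 and from -0.49 to -0.30 when libraries were left out (leaving out libraries was added for this gene after seeing the data), with the call lost in 19 and 18 of 24 fits. The cause was not tested in these cases. The 7 calls for nitrate at 25 d and for the nitrate-by-age interaction and the 6 for age at 0.2 mM were the same in number in all alternatives.

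With the replicate block, the average of UBC11 was -0.90 and none of the 17 results compared changed its call or count. For same-numbered plants of the 2 genotypes, r of the deviations from the group means was between -0.22 and 0.32. Of these, 5 of 12 correlated best with their own number. With 3 plants per group, this check cannot decide whether the numbers pair the plants. Depth limits UBC12 in wild type, where a count of 0 in a library allows up to 3 reads.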
